A study of Mus musculus with 32 samples.

Results

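Brain and heart of mice were compared for the 5-methylcytosine (5mC) signal of each gene, the comparison of 2 organs within a series that profiled 4. The comparison takes the 8 samples labelled as 5mC precipitates of brain or heart, out of 32 samples in the series, and reads them from 4 of the 8 deposited data columns. Of 27179 genes in the table, the 25982 with at least 1 CPM (the read count of a gene scaled to library size) in at least 2 of the 8 columns were tested. Every one of these genes is a member, called or not.

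The groups were frozen brain, formalin-fixed paraffin-embedded (FFPE) brain, frozen heart and FFPE heart, and kidney and liver were kept in both ways too. The labels give no strain, age, sex, genotype or drug for any of them. Each is whole-organ tissue, so a value averages over all its cell types, and fewer cells of a type and less methylation per cell cannot be told apart. The table has 1 column per organ and preservation, called a library here, and its headings name neither the antibody nor a replicate. The values were taken as 5mC signal because the table came with the methylation assay.

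In mammals 5mC sits mainly on cytosines followed by guanine (CpG sites). Most CpG sites in the genome are methylated, while CpG-rich promoters usually are not, and genes active in a cell type often carry little 5mC around their start and enhancers. In MeDIP-seq, an antibody to 5mC pulls down single-stranded DNA fragments that are then sequenced, so a gene's read count depends on its methylated cytosines, its CpG content and its length. Neurons are known for methylation patterns set after birth, and heart muscle cells for low methylation across the genes of the contractile apparatus.

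The antibody can bind only where there are cytosines to methylate. The bases just before the gene start are therefore shown for some of the genes with large differences, with every CpG in capitals. They are the 250 bases upstream of the gene's first base for 2 genes with more signal in brain (Mab21l2 and Klf2) and 2 with less (Lrrc4 and Scarf2), 5′ to 3′ on the gene's strand, from RefSeq on GRCm38.p6, the assembly behind mm10.
Mab21l2, chr3:86548284-86548533, minus strand: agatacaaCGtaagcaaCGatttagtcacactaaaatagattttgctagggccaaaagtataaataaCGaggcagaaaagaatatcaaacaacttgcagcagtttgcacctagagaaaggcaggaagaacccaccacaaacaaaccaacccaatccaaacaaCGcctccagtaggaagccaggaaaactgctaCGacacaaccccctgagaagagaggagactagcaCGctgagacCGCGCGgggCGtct
Klf2, chr8:72318812-72319061, plus strand: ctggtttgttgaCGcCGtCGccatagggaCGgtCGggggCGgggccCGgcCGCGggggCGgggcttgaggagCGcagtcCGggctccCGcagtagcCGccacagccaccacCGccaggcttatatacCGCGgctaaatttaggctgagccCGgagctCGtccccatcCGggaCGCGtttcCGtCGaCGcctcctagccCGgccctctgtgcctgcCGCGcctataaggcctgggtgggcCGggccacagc
Lrrc4, chr6:28831748-28831997, minus strand: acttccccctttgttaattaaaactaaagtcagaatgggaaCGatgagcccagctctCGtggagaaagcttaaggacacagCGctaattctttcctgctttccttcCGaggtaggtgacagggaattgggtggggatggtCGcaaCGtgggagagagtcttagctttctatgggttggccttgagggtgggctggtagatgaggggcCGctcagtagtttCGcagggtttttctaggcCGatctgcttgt
Scarf2, chr16:17797032-17797281, plus strand: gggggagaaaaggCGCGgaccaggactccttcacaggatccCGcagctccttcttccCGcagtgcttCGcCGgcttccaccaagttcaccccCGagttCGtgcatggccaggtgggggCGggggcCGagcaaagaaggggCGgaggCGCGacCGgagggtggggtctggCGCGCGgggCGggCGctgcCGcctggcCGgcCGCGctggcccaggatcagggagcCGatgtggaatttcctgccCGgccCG
The letters CG, which read the same on both strands, occur 10 times before Mab21l2, 29 times before Klf2, 9 times before Lrrc4 and 26 times before Scarf2. Over 18257 promoters of this length the median was 9, and 93.0% held at least 1 CG. Each direction of the comparison thus had 1 gene near the median and 1 gene with a CpG-rich start, Klf2 being reached by 8.22% of promoters and Scarf2 by 11.8%. These windows were not measured apart from the gene, so the values below cannot be assigned to them.

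Reads on genes numbered 2205597 in frozen brain, 3050175 in FFPE brain, 2641841 in frozen heart and 2386266 in FFPE heart, within the range of 2164158 to 3699218 over all 8 libraries. A gene at 0 reads could still hold up to 1.25 CPM in the shallowest of these 4 libraries, frozen brain, by a limit of 3 reads that covers counting error only. Mitochondrial genes took 8.66% of the reads in frozen brain and 1.76% in FFPE brain, against 7.24% and 2.72% in heart. The part of this in the results was not tested. None of the 15 mitochondrial genes passed the test, but that does not bear on the other genes. The mitochondrial median difference was 0.35 in frozen and -0.69 in FFPE tissue, and the test counts such a change as error.

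More genes were called lower than higher in brain, although over all genes brain lay above heart slightly more often than below. The test was limma's moderated test on the deposited log2 CPM values, with organ and preservation as terms and Benjamini-Hochberg adjustment over all 25982 genes at 0.05. It called 310 genes lower in brain (1.19% of genes tested) and 135 higher (0.520%), 445 in all (1.71%). The median log2 difference, brain minus heart, was -1.07 over the lower genes and 1.45 over the higher genes, against 0.04 over all genes tested. Both brain libraries lay below both heart libraries for 6456 genes (24.8%), and above both for 7384 (28.4%). At an unadjusted p under 0.05 there were 2605 lower genes (10.0%) and 2038 higher genes (7.84%).

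Frozen and FFPE tissue, which share no library, gave the same direction for all 445 called genes. That much follows in part from the test, which measures its error by how far organ differences changed with preservation. Over all genes tested, 70.1% had the same sign in both. The 2 sets of differences had a Pearson's r of 0.446 over genes, which do not count as replicates. Over the 12991 genes at or above the median signal, r was 0.610 and 73.6% had the same sign.

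**Figure D1:**
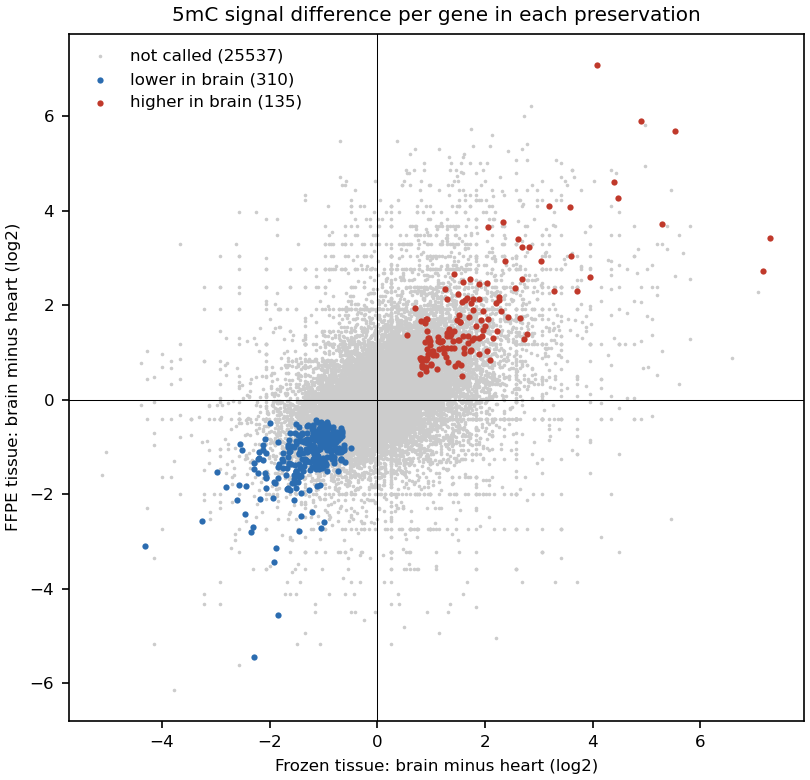
Brain minus heart difference in log2 CPM for each of 25982 genes, in frozen tissue (horizontal axis) and FFPE tissue (vertical axis). Blue points are the 310 genes called lower in brain and red points the 135 called higher, all in the quadrants where both preservations have the same sign, and grey points are the other genes.

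The number of calls depended on single libraries. Without the frozen or FFPE heart library, 5 and 1 genes were lower in brain and 0 were higher in each case, at 2636 and 2566 genes with an unadjusted p under 0.05. Without the frozen or FFPE brain library, 19 and 87 were lower and 4 and 11 higher, while without the frozen or FFPE kidney library 1322 and 1295 were lower and 845 and 865 higher. Of the calls 30.3% were higher in brain. That share was 42.4% under quantile normalization, 19.6% after each library was centred on its own median, 48.6% with voom weights, 52.8% under cyclic loess normalization (168 lower, 188 higher) and 51.4% with the brain and heart libraries only (2261 lower, 2391 higher). Higher calls were thus the majority under the last 2 settings.

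The 15 largest falls in brain were taken among called genes at or above the median signal whose brain and heart libraries did not overlap. They included Tbx3, Tbx2 and Hoxb3, transcription factor genes known from development. Tbx3, a T-box repressor that marks the cardiac conduction system, carried 21.7 CPM in frozen brain and 7.77 CPM in FFPE brain, against 82.1 and 85.0 CPM in frozen and FFPE heart. It was 6.36-fold lower in brain (log2 difference -2.67 ± 0.32 SE, limma adjusted p = 0.00117; chromosome 5, 119670534 to 119684724). Its close relative Tbx2 held 8.34 and 8.36 CPM in frozen and FFPE brain, against 46.7 and 45.7 CPM in heart. The log2 difference of Tbx2 was -2.44 ± 0.28, with a limma adjusted p of 0.00113 (chromosome 11, 85832615 to 85841948). For both T-box genes every brain library lay far below every heart library, and kidney and liver lay above brain too, at 77.98 to 181 CPM for Tbx3 and 27.8 to 63.3 CPM for Tbx2.

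Hoxb3, a gene of position along the body axis, was 4.38-fold lower (-2.13 ± 0.37, limma adjusted p = 0.0113), with 5.00 and 8.66 CPM in frozen and FFPE brain and 28.1 and 31.0 CPM in heart. Its annotated span on chromosome 11 (96307101 to 96347930) overlaps Hoxb4 and Mir10a, so their reads may be split between them. Irs2, an adaptor of the insulin receptor, was 3.45-fold lower, with 17.9 and 14.9 CPM in brain against 57.9 and 56.0 CPM in heart. Tob1, an inhibitor of cell proliferation, was 5.14-fold lower (-2.36 ± 0.36, limma adjusted p = 0.00618). Tob1 held 16 and 35 reads in frozen and FFPE brain and 118 and 116 in heart.

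Lrrc4, Cdk5r1 and Ncdn, also among the 15, have known roles in neurons, but were named for their size of change and not as a group. Lrrc4, a postsynaptic adhesion protein, carried 20.8 CPM in frozen brain, 10.2 CPM in FFPE brain, and 57.2 and 70.7 CPM in frozen and FFPE heart. Lrrc4 was 4.33-fold lower in brain (-2.11 ± 0.29, limma adjusted p = 0.00306), although its span on chromosome 6 (28828126 to 28831747) lies within Snd1. Cdk5r1, the p35 activator of the neuronal kinase Cdk5, held 32.9 and 19.7 CPM in brain against 76.9 and 102 CPM in heart, a log2 difference of -1.79 ± 0.27. Ncdn, the neuronal protein neurochondrin, held 13.8 and 20.9 CPM in brain against 52.3 and 69.9 CPM in heart, a log2 difference of -1.82 ± 0.24. In these 3 genes the higher brain library stayed below the lower heart library by more than the gap between the brain libraries.

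Fam171a2, a membrane protein gene, had the smallest adjusted p of the 15 (0.000736 by limma), at 11.7 and 12.2 CPM in brain and 58.6 and 80.2 CPM in heart. The others among the 15 largest falls had log2 differences from -1.94 to -1.86. They were Scarf2, a scavenger receptor, Zfp219, a zinc finger transcription factor, Igsf8, an immunoglobulin family membrane protein, Brd2, a reader of acetylated histones, Fbxl8, a ubiquitin ligase adaptor, and Snx20, a sorting nexin. Zfp219 overlaps Arhgef40 and Tmem253, and Brd2 overlaps H2-DMa. Ncdn and Irs2, named above, overlap AU040320 and 9530052E02Rik. Reads of these overlapping genes may be shared.

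The 15 largest rises in brain, found in the same way, included Mab21l2, Klf2, Aplnr and Fzd4. Mab21l2, needed for eye and body wall development, carried 83.0 CPM in frozen brain and 58.5 CPM in FFPE brain, against 20.01 and 10.3 CPM in frozen and FFPE heart. It was 4.79-fold higher in brain (log2 difference 2.26 ± 0.36, limma adjusted p = 0.00816; chromosome 3, 86546050 to 86548283, within Lrba). Mab21l2 did not set brain apart from every organ: kidney held 111 and 79.4 CPM, and liver 9.35 and 2.27 CPM.

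Klf2, a transcription factor that endothelial cells induce under blood flow, held 27.9 and 35.8 CPM in frozen and FFPE brain, against 7.37 and 6.35 CPM in heart. The gene was 4.53-fold higher in brain (2.18 ± 0.31, limma adjusted p = 0.00322; chromosome 8, 72319062 to 72321654). Here heart was the organ that stood apart, since kidney and liver held 31.7 to 86.0 CPM. Aplnr, the apelin receptor of developing vessels, carried 57.5 and 50.8 CPM in brain against 15.4 and 20.3 CPM in heart. Fzd4, a receptor for norrin and Wnt signals in vessels, carried 55.0 and 59.1 CPM in brain against 16.2 and 24.6 CPM in heart. The log2 differences of Aplnr and Fzd4 were 1.60 ± 0.27 and 1.51 ± 0.30, and Fzd4 overlaps Tmem135.

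Sox9, a transcription factor of glia and cartilage, held 64.2 and 47.2 CPM in brain and 16.5 and 18.3 CPM in heart, 3.15-fold higher in brain (limma adjusted p = 0.0131). Heart stood apart here too, since kidney held 133 and 53.9 CPM and liver 121 and 137 CPM. Gal3st1, which makes the myelin lipid sulfatide, held 38.8 and 25.7 CPM in brain and 11.2 and 6.75 CPM in heart, with a log2 difference of 1.83 ± 0.31 (limma adjusted p = 0.0101). Liver held more signal on Gal3st1 than brain did, at 148 and 176 CPM. The RNA genes Sox1ot and Nkx2-2os, which overlap Sox1 and Nkx2-2, rose by 1.90 ± 0.39 and 1.87 ± 0.40 on the log2 scale. Each brain library of Sox1ot (70.0 and 61.5 CPM) and of Nkx2-2os (57.1 and 67.2 CPM) lay above all 6 others. Reads of such overlapping genes cannot be told apart here, because neither the strand nor the counted feature is given.

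The remaining genes of the 15 largest rises had log2 differences from 1.54 to 1.88. They were Cyp1b1, a cytochrome P450, Skida1, Ccdc177, Itpripl2, Fbxo43, an inhibitor of the anaphase-promoting complex in meiosis, C78197, and Rasef, a Rab GTPase. Cyp1b1 had the largest of these differences, at 91.3 and 88.4 CPM in frozen and FFPE brain against 21.8 and 27.0 CPM in heart, and kidney and liver lay at 20.95 CPM or less.

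**Figure D2:**
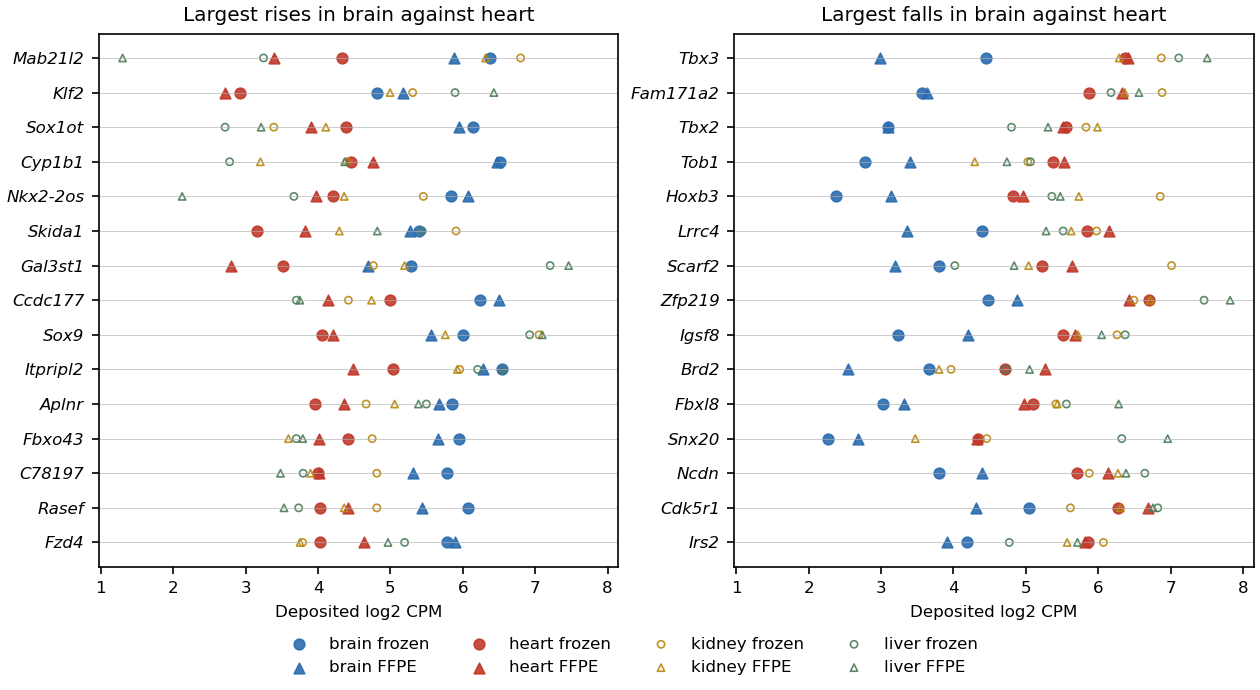
Deposited log2 CPM (horizontal axes) of the 15 genes with the largest rises (left) and the 15 with the largest falls (right) in brain against heart, in all 8 libraries. Filled blue and red symbols are brain and heart, open symbols kidney and liver, circles frozen and triangles FFPE tissue. The blue and red symbols do not overlap in any of the 30 rows because the genes were chosen that way. The open symbols lie mostly on the heart side on the right and on both sides on the left.

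The genes that define neurons leaned to less signal in brain, while few passed the test. Of 26 pan-neuronal genes, 1 was lower and 0 were higher (1.19% and 0.520% of all genes tested), and 16 had both brain libraries below both heart libraries (24.8% of all genes). The list's median difference was -0.53, at -0.44 in frozen and -0.59 in FFPE tissue, against 0.04 over all genes. Of the 26, 11 were lower in brain at an unadjusted p under 0.05 and 0 were higher (10.0% of all genes were). The summed signal of the 26 genes was 1035 and 1133 CPM in frozen and FFPE brain, 1507 and 1629 CPM in heart, and 1779 to 1930 CPM in kidney and liver. Brain was thus the lowest of the 4 organs over these genes, but not over these genes alone. Writers, erasers and readers of DNA methylation summed to 1163 and 1469 CPM in brain, against 1577 to 2241 CPM in the other organs. Respiratory chain genes summed to 550 and 639 CPM in brain, against 769 to 936 CPM.

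Dlg4, the postsynaptic scaffold PSD-95, was the neuronal gene that passed, with 57.5 and 66.6 CPM in brain against 122 and 106 CPM in heart (log2 difference -0.88 ± 0.18, limma adjusted p = 0.0254). Rbfox3, the neuronal nuclear antigen NeuN, had 48.8 and 57.0 CPM in brain against 83.5 and 90.9 CPM in heart, a difference of -0.72 ± 0.19 that missed the threshold (limma adjusted p = 0.065). Mapt, the microtubule protein tau, had 25.4 and 34.4 CPM in brain and 60.7 and 53.6 CPM in heart (-0.94 ± 0.28, limma adjusted p = 0.0902). In these 3 genes brain and heart did not overlap. Others lay near 0, such as the neurofilament gene Nefm (-0.06 ± 0.28) and the synaptic vesicle fusion gene Snap25 (0.05 ± 0.61), whose low reads (14 to 36 per library) gave a wide error. The count of lower neuronal genes was 8 of 26 without the 2 kidney libraries, 5 under quantile normalization and 0 under cyclic loess normalization. Over all 25982 genes, the counts of lower genes under these 3 settings were 1340, 915 and 168.

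Transmitter and glial genes had few calls in either direction (1.19% of all genes were called lower and 0.520% higher). Of 30 glutamate and GABA genes 1 was lower, Gabbr1, a subunit of the GABA-B receptor (28.8 and 43.3 CPM in brain, 73.0 and 78.2 CPM in heart, -1.09 ± 0.25), and their median difference was -0.08. Both brain libraries lay below both heart libraries for 10 of the 30 (24.8% of all genes) and above for 5 (28.4%). Of 16 astrocyte genes Sox9 was higher, and the median was 0.10. Of 21 oligodendrocyte genes Gal3st1 was higher and Cnp lower, and the median was -0.04. Cnp, an enzyme of myelin, held 10.8 and 9.26 CPM in brain against 29.1 and 28.6 CPM in heart (-1.51 ± 0.35, limma adjusted p = 0.0431), and overlaps Dnajc7. The 2 myelin genes that passed thus differed in direction. None of 15 microglia genes passed, but 7 had both brain libraries above both heart libraries (28.4% of all genes) and 1 had them below (24.8%). The microglia median was 0.34, and 0.17 over the 8 genes at or above the median signal.

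Genes of the heart's contractile apparatus leaned the other way, to more signal in brain. Of 26 sarcomere genes 1 was higher and 0 lower (0.520% and 1.19% of all genes), 19 had both brain libraries above both heart libraries (28.4% of all genes), and the median difference was 0.51 (0.55 in frozen, 0.48 in FFPE tissue). At an unadjusted p under 0.05, 13 of the 26 were higher in brain (7.84% of all genes) and 0 lower. Their summed signal was 4945 and 5727 CPM in brain, 3769 and 4233 CPM in heart, and 6817 to 7347 CPM in kidney and liver. Heart was therefore the lowest organ over its own sarcomere genes, but not over these genes alone. Germline genes summed to 1353 and 1412 CPM in heart, against 1795 to 2214 CPM in the other organs. Imprinted genes summed to 2793 and 3090 CPM in heart, against 3103 to 4970 CPM. Ttn, the giant spring protein titin, made up the largest part of the sarcomere sum, at 2798 and 3499 CPM in brain and 2194 and 2579 CPM in heart.

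Xirp1, an actin-binding protein of the intercalated disc, was the sarcomere gene that passed, with 117 and 123 CPM in brain against 62.8 and 76.2 CPM in heart (0.79 ± 0.17, limma adjusted p = 0.0315). Des, the muscle intermediate filament desmin, had the largest difference of the list, at 39.2 and 28.1 CPM in brain against 17.6 and 9.13 CPM in heart (1.37 ± 0.40, limma adjusted p = 0.0853). Myh6, the adult atrial and ventricular myosin heavy chain of mice, had 161 and 175 CPM in brain against 105 and 116 CPM in heart (0.60 ± 0.16, limma adjusted p = 0.0683). Des and Myh6 missed the threshold although their libraries did not overlap. The count of higher sarcomere genes was 7 without the 2 kidney libraries, and 5 under quantile and under cyclic loess normalization. Over all 25982 genes, the counts of higher genes under these settings were 930, 673 and 188.

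Other heart lists showed smaller or mixed shifts. None of 24 calcium and excitation genes passed (median 0.29) and none of 22 muscle energy genes (median 0.21). Of 26 cardiac transcription factor genes 2 were higher in brain and 2 lower (0.520% and 1.19% of all genes), and their median was 0.04. The higher ones were Tbx20, a T-box factor of heart muscle, at 95.0 and 81.8 CPM in brain against 35.5 and 38.1 CPM in heart (1.26 ± 0.25, limma adjusted p = 0.0214), and Myocd, the coactivator myocardin, at 122 and 129 CPM against 64.2 and 69.5 CPM (0.91 ± 0.19, limma adjusted p = 0.0296). The lower ones were Tbx2 and Tbx3. T-box genes of the heart thus appeared in both directions, Tbx5 lying between them at 0.05 ± 0.19.

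Endothelial genes, which mark a cell type found in both organs, leaned to more signal in brain. Of 20 genes 3 were higher, Klf2, Kdr and Klf4 (0.520% of all genes), and 0 were lower. For 14 of the 20 both brain libraries lay above both heart libraries (28.4% of all genes), and for 0 below, with a median difference of 0.56. Kdr, the main receptor for vascular endothelial growth factor, held 138 and 150 CPM in brain and 73.0 and 54.4 CPM in heart (1.19 ± 0.19, limma adjusted p = 0.00831). The list summed to 1205 and 1227 CPM in brain, 908 and 902 CPM in heart, and 1094 to 1346 CPM in kidney and liver, so heart was again the lowest. Vwf and Flt1, which also define endothelium, lay at 0.19 ± 0.17 and -0.05 ± 0.18.

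Lists of fibroblast and mural cells, leukocytes and red blood cells had no gene past the threshold (1.71% of all genes), with medians of 0.26, 0.27 and 0.34 over 17, 17 and 11 genes. Both brain libraries lay above both heart libraries for 8, 6 and 7 of these genes (28.4% of all genes). They lay below for 1, 2 and 1 (24.8%).

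**Figure D3:**
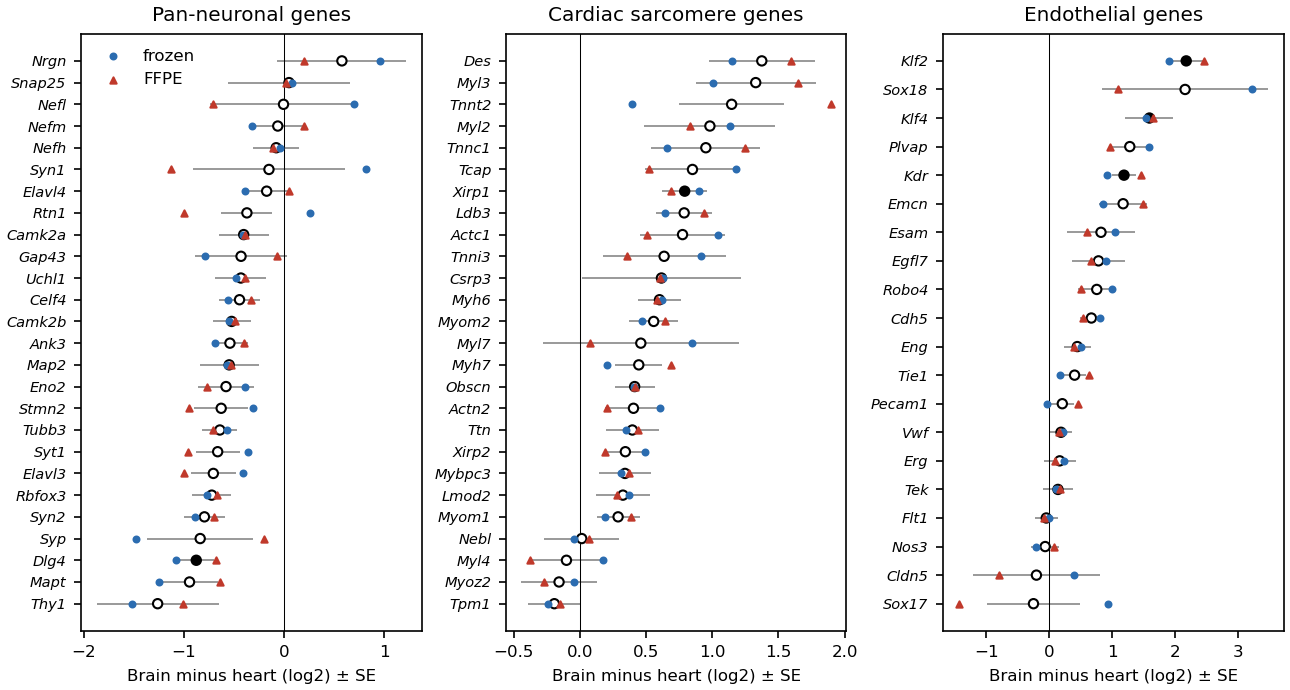
Brain minus heart difference in log2 CPM (horizontal axes) for 26 pan-neuronal, 26 cardiac sarcomere and 20 endothelial genes, with the fitted difference as a circle (filled where limma's adjusted p is under 0.05), its SE as a bar, and the frozen and FFPE differences as blue points and red triangles. Most neuronal genes lie left of 0 and most sarcomere and endothelial genes right of it, while 1, 1 and 3 circles are filled.

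Genes that direct the early nervous system had a median difference of 1.02 over 39 genes. Both brain libraries lay above both heart libraries for 28 (28.4% of all genes) and below for 5 (24.8%), and 1 gene was called. Over the 10 of these genes at or above the median signal the median was 0.33, below the medians of the sarcomere (0.41), endothelial (0.40) and germline (0.45) lists taken the same way. That gene was Fezf2, a transcription factor of cortical projection neurons, with 35 and 90 reads in frozen and FFPE brain and 2 and 0 reads in heart (limma adjusted p = 0.0237). No fold is given for Fezf2, because its fitted difference depends on the 0.5 read added before the logarithm. Tbr1, a T-box factor of cortical neurons, had 44.2 and 62.7 CPM in brain against 14.04 and 13.5 CPM in heart (1.92 ± 0.48, limma adjusted p = 0.0535). Nes, the progenitor filament nestin, had 85.0 and 48.4 CPM in brain against 22.8 and 21.4 CPM in heart (1.53 ± 0.42, limma adjusted p = 0.0705). Many of these genes were thinly covered: Sox2, a stem cell factor, had 26 and 38 reads in brain against 3 and 5 in heart. Sox3 went the other way, with the lowest difference of the list at -2.77, and was not called.

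Germline genes, many of which stay methylated in adult somatic tissue, had 3 of 31 genes higher in brain (0.520% of all genes), 0 lower, and a median of 0.45. Both brain libraries lay above both heart libraries for 22 of the 31 (28.4% of all genes). Tdrd1, a protein of the piRNA pathway, held 195 and 191 CPM in brain and 104 and 107 CPM in heart (0.87 ± 0.16, limma adjusted p = 0.0168). Dazl, which binds RNA in germ cells, and Sycp1, of the synaptonemal complex, rose by 1.19 ± 0.26 and 1.04 ± 0.24 on the log2 scale. For these genes brain and heart did not overlap, and the summed signal of the list was 1795 and 1869 CPM in brain, 1353 and 1412 CPM in heart, and 1970 to 2214 CPM in kidney and liver.

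Of 38 Hox genes 1 was higher and 2 lower (0.520% and 1.19% of all genes). Hoxc5 held 34 reads in each brain library against 4 and 1 in heart (limma adjusted p = 0.0229). Hoxd4 held 2 and 7 reads in brain against 28 and 33 in heart (limma adjusted p = 0.0165). Hoxc5 overlaps Mir615, and Hoxd4 overlaps Hoxd3 and Mir10b. Kidney carried far more signal over the Hox list, 949 to 1297 CPM, than the other organs, at 149 to 240 CPM. Of 58 clustered protocadherins, adhesion proteins that give neurons an identity, 3 of the gamma cluster were lower in brain (1.19% of all genes). They were Pcdhga12 (-1.11 ± 0.18), Pcdhgc5 (-1.38 ± 0.27) and Pcdhga9 (-1.29 ± 0.30). These 3 share their last exons on chromosome 18, so they are not independent, and the list's median was 0.00.

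Genes named Zfp, chiefly DNA-binding repressors with zinc fingers, had 9 of 363 lower in brain (1.19% of all genes) and 1 higher (0.520%), with a median of -0.26. Both brain libraries lay below both heart libraries for 153 of them (24.8% of all genes) and above for 24 (28.4%). Zfp212 held 12.9 and 14.3 CPM in brain against 46.3 and 36.9 CPM in heart (-1.59 ± 0.29, limma adjusted p = 0.0155), and Zfp777 76.7 and 91.4 CPM against 138 and 160 CPM (-0.83 ± 0.17, limma adjusted p = 0.0278). The higher member, Zfp36, encodes an RNA-binding protein rather than a repressor. It held 66 and 64 reads in brain, 0 and 4 in heart, 0 in both kidney libraries, and 0 and 1 in liver (limma adjusted p = 0.0488).

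Of 17 writers, erasers and readers of DNA methylation 1 was lower (1.19% of all genes). This was Tet3, which oxidises 5mC, with 115 and 147 CPM in brain against 239 and 237 CPM in heart (-0.88 ± 0.16, limma adjusted p = 0.0155). The span of Tet3 overlaps B230319C09Rik. Of 38 imprinted genes 1 was higher (0.520% of all genes). This was Kcnq1ot1, the noncoding RNA of the Kcnq1 domain, at 733 and 636 CPM in brain and 408 and 395 CPM in heart (0.77 ± 0.16, limma adjusted p = 0.0288). Its span overlaps Kcnq1, and the imprinted list's median was 0.02. None of 75 ribosomal protein genes passed (median -0.63, at -1.03 in frozen and -0.41 in FFPE tissue). The ribosomal median was -0.29 without the frozen heart library, -1.14 without the FFPE heart library, -1.24 under quantile and -1.05 under cyclic loess normalization. None of 73 respiratory chain genes passed (median -0.44, and -0.70 under quantile normalization), and none of 1104 olfactory receptor genes (median 0.62). Olfactory receptors, clustered genes silent in both organs, lay above heart in both brain libraries for 486 of the 1104 (28.4% of all genes). Their median was 0.28 under cyclic loess normalization, 0.39 under quantile normalization, and 0.12 over the 86 receptor genes at or above the median signal.

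**Figure D4:**
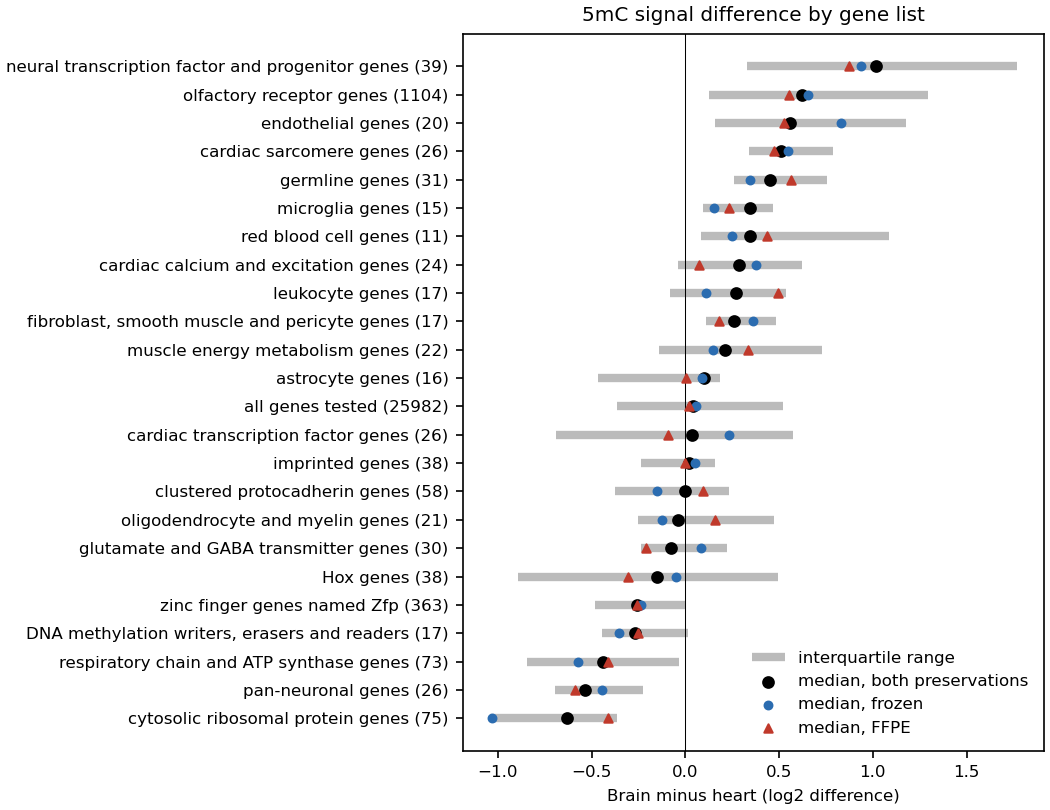
Median brain minus heart difference in log2 CPM (horizontal axis) for 23 gene lists and all genes tested, with the number of genes in brackets. Black points are the fitted medians, blue points and red triangles the medians in frozen and FFPE tissue, and grey bars the interquartile range over genes; the neural transcription factor list lies farthest right at 1.02 and the ribosomal list farthest left at -0.63.

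Kidney and liver show which organ stood apart. Of the 310 genes lower in brain, 292 (94.2%) had both brain libraries below all 6 other libraries (11.7% of all genes tested). Both heart libraries lay above all 6 others for 36 of the 310 (11.6%, against 4.78% of all genes). Of the 135 genes higher in brain, 100 (74.1%) had brain above all 6 others (16.5% of all genes), and 50 (37.0%) had heart below all 6 others (3.47% of all genes). Klf2 is of the second kind, and Cyp1b1 of the first. The comparison also chose these genes for a gap between brain and heart, so the shares describe them and test nothing.

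Of all genes tested 79.8% were protein coding. Among the lower genes, 308 of 310 were protein coding and 19 lay below the median signal. Among the higher genes 100 of 135 (74.1%) were protein coding, near the share over all genes, and 46 lay below the median signal. Long noncoding RNAs had 21 genes higher and 1 lower of 2031 tested (0.520% and 1.19% of all genes), with a median difference of 0.46. Sox1ot and Nkx2-2os are among them. The median level of these RNAs was low, at 3.00 log2 CPM. Over all genes split into 4 groups of equal size by level, the lowest group had a median difference of 0.54 and the next 0.15. Of the higher genes, 11 had 3 or fewer reads in a heart library, and for these the size of the difference is poorly known.

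The lower genes were more frequent where promoters were rich in CpG. Genes were split into 4 groups of equal size by the mean CpG count of their listed promoters, from group 1 with the fewest to group 4 with the most. The share lower in brain was 0.0657% in group 1, 0.614% in group 2, 1.67% in group 3 and 2.72% in group 4. The median difference went from 0.50 in group 1 to -0.24 in group 4. Signal level changed along with CpG count, the share of lower genes rising from 0.0308% to 3.33% over 4 groups of equal size by level. Among genes at or above the median signal, the 4 CpG groups held 0.198%, 1.09%, 2.33% and 3.64% lower genes, and their medians were 0.19, 0.04, -0.20 and -0.26. Of the sequences shown at the start, Scarf2 stands for a lower gene with a CpG-rich promoter, and Klf2 for a higher gene with one.

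**Figure D5:**
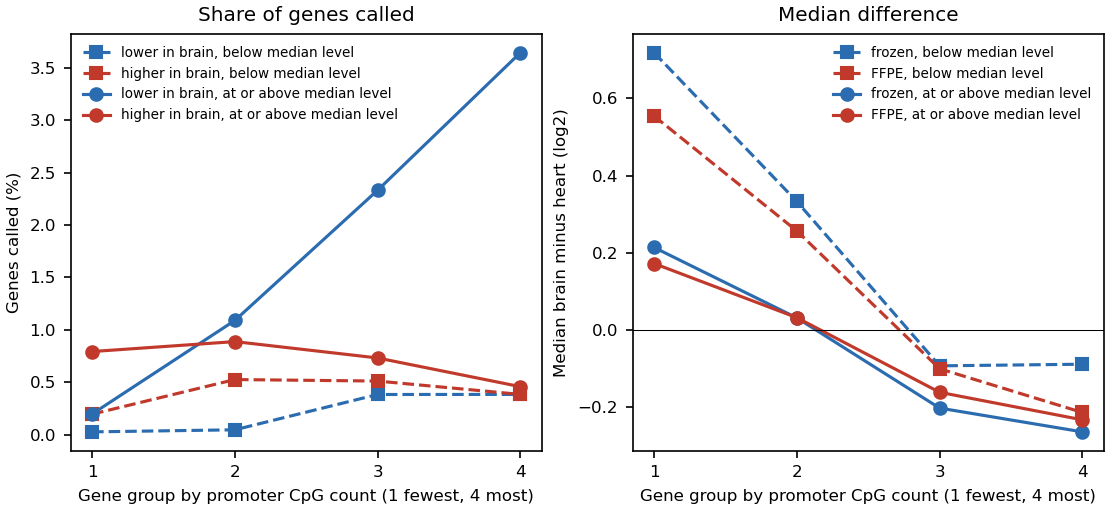
Share of genes called in percent (left) and median brain minus heart difference in log2 CPM (right) by group of promoter CpG count, for genes below (dashed, squares) and at or above (solid, circles) the median signal. In the left panel the solid blue line of lower genes climbs from 0.198% to 3.64%; in the right panel, where blue is frozen and red FFPE tissue, every line lies lower in group 4 than in group 1.

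Called genes made up 1.71% of all genes tested, from 0.458% on chromosome X to 2.87% on chromosome 8, and 0 of 101 on chromosome Y. Median levels were lower on chromosomes X and Y, at 2.86 and 1.18 log2 CPM, than on chromosome 8, at 4.76 log2 CPM. In the lowest of the 4 groups by level, 0.200% of genes were called. The part of signal level in the chromosome shares was not tested. Neighbouring genes lower in brain formed 13 runs holding 27 genes in all, and 3 of the runs contain overlapping genes. The longest held 3 genes, Baiap2, Aatk and Cep131, on chromosome 11 (119939916 to 120086865). Baiap2 encodes a synaptic actin regulator and Aatk a kinase abundant in brain. Another run paired Cntn2 and Nfasc, adhesion proteins of the axon, on chromosome 1 (132509425 to 132741848). Further runs of the same length paired Pkd1 and Tsc2 on chromosome 17, and Ctcf and Carmil2 on chromosome 8. No run of genes higher in brain was found.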

How the data were processed

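MeDIP-seq of brain, heart, kidney and liver, frozen and FFPE, was used, and only the brain and heart contrast is given. Per the submitters' processing notes, Bowtie2, featureCounts, limma and mm10 were used. Their versions, the counted feature, strand and the treatment of multiple alignments were not given in the sources used here. Log2 CPM is deposited by the authors for 27179 genes. Each of the table's 8 columns was mapped to an organ and preservation by its heading; whether a column is 1 library or a pool, and whether replicates came from separate animals, is not stated, so p-values measure only the spread between these columns. Input libraries were not analysed here.

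Every deposited value stepped back to a whole read count (tolerance 0.0001) with 0.5 read added, and these reads were used for depth, read counts and limits only. Limma 3.58.1 in R 4.3.3 fitted organ plus preservation to the log2 values of 25982 genes (at least 1 CPM in at least 2 libraries, 1197 removed), with 5 coefficients, 3 residual and 13.1 prior degrees of freedom and a variance trend. With single columns, the residual reflects how far organ differences change with preservation. P-values were adjusted by Benjamini-Hochberg over all genes at 0.05. Fold changes are on the log2 scale with 0.5 read added, which understates those of low genes.

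Named genes were the 15 largest called differences in each direction at or above the median signal, without overlap of brain and heart, without Gm, LOC and Rik models, small RNAs or pseudogenes, and up to 4 called members of each list with the smallest p. Neuronal, oligodendrocyte, sarcomere, cardiac and neural transcription factor members could also be named uncalled; Vwf and Flt1 were chosen after their values were seen, as were the genes named for runs. Members and lists were chosen with earlier results of these data known, so lists carry counts and medians and no test. Genes were matched by Entrez ID to RefSeq on GRCm38.p6 (25271 genes, 93.0%), and 18458 genes had promoter sequences. A printed promoter comes from the first 2 named genes per direction whose listed start is the gene's annotated start and not on chromosome 18. Alternatives changed the normalization, the filter, the read added, the libraries in the fit and the variance model. The fitting script was tested on simulated data.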

Additional observations from a re-analysis of the deposited data

Results flagged for a closer look

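The median difference between brain and heart had opposite signs in frozen and FFPE tissue for 5 gene lists and for mitochondrial genes. Whether the difference between preservations exceeds the spread was not tested, since each preservation has 1 library per organ.

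The glutamate and GABA list had a median log2 difference, brain minus heart, of 0.086 in frozen and -0.21 in FFPE tissue. The oligodendrocyte list had -0.13 in frozen and 0.16 in FFPE tissue. Cardiac transcription factor genes had 0.23 and -0.09. The called members Tbx2, Tbx3, Tbx20 and Myocd each kept 1 direction, which follows in part from the test. Clustered protocadherins had -0.15 and 0.10, and imprinted genes 0.0505 and -0.0036.

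The 15 mitochondrial genes had a median of 0.35 in frozen and -0.69 in FFPE tissue. Mitochondrial reads made up 8.66% of reads in frozen brain (exact Clopper-Pearson 95% interval 8.63% to 8.70%) and 7.24% in frozen heart (7.21% to 7.27%), but 1.76% in FFPE brain (1.75% to 1.78%) and 2.72% in FFPE heart (2.70% to 2.75%). These intervals cover counting error only.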

How the results depend on the processing

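No paired analysis was possible because the columns carry no replicate number. The count test and the replicate block that were planned were not run: the values are log2 with 1 column per group, and voom weights on the recovered reads took the count test's place. Cyclic loess normalization, and the lists' values over genes at or above the median signal, were chosen after seeing the data. The cause of each shift below was not tested.

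Lower and higher genes (310 and 135) numbered 915 and 673 after quantile normalization, 563 and 137 after centring each library, 207 and 84 without a filter, 725 and 249 among genes at or above the median signal (12991 tested), 2261 and 2391 with brain and heart libraries only, 1340 and 930 without the 2 kidney libraries, 56 and 20 without the preservation term, 1970 and 1370 with array weights, 335 and 317 with voom weights, 458 and 221 with 2 reads added in place of 0.5, and 168 and 188 with cyclic loess. Without the variance trend limma called 0 and 0, with 3571 genes at an unadjusted p under 0.05. Leaving out 1 library gave 1 to 1322 lower and 0 to 865 higher genes. Quantile normalization kept all 310 lower and 135 higher genes, and cyclic loess kept 161 and 113.

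The list counts here and in the next paragraph are to be read beside the counts over all genes under the same setting, given above. Lower neuronal genes (1) numbered 5 (quantile), 4 (centred), 9 (brain and heart only), 8 (no kidney) and 0 (cyclic loess). Under the same settings lower zinc finger genes (9) numbered 18, 16, 68, 34 and 6. Higher sarcomere genes (1) numbered 5 under quantile, 12 with brain and heart only, 7 without kidney and 5 under loess; neural transcription factor genes (1) 6 under quantile, 2 when centred, 17 with brain and heart only and 11 without kidney; endothelial genes (3) 5, 8 and 6, and germline genes (3) 5, 11 and 6, under quantile, brain and heart only, and no kidney. Median differences moved to 0.59, 0.45 and 0.62 (sarcomere) and 0.95, 0.96 and 0.84 (neural transcription factor) under quantile, centring and loess, and to -0.32 and -0.21 (zinc finger) under centring and loess. Over genes at or above the median signal, refitted alone, medians were 0.41 (sarcomere), 0.33 (neural transcription factor) and -0.31 (zinc finger), with 4 lower neuronal, 4 higher sarcomere and 20 lower zinc finger genes.

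Leaving out 1 library gave 0 to 8 lower neuronal, 0 to 34 lower zinc finger, 0 to 8 higher sarcomere, 0 to 12 neural transcription factor, 0 to 6 endothelial and 0 to 6 germline genes. List medians then ran from -0.57 to -0.49 (neuronal), -0.29 to -0.24 (zinc finger), 0.40 to 0.53 (sarcomere), 0.84 to 1.18 (neural transcription factor), 0.48 to 0.77 (endothelial) and 0.42 to 0.57 (germline). Array weights were 0.496 for kidney and 1.53 for heart libraries.

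None of the 53 named genes changed direction under the normalizations or left-out libraries tried, but 52 lost the call without FFPE heart, 50 without frozen heart, 45 without frozen brain, 34 without FFPE brain, 14 and 13 without frozen and FFPE liver, and 8 under cyclic loess. The 53 genes were chosen because they were called, so that they kept their direction follows in part from the choice. Leaving out a kidney or liver library cannot change a brain minus heart difference, only its error. With 1 library left to an organ, that library is assumed to vary like the others. Depth limits genes with few reads: 2813 of 25982 had 3 or fewer reads in a heart library.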

Other observations

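A list of genes of sterol and fatty acid synthesis was drawn up after their values were seen and so has no test. Of 31 genes, 7 were lower in brain by limma's adjusted p (1.19% of all genes), 0 were higher (0.520%), and 26 had both brain libraries below both heart libraries (24.8% of all genes). The median difference was -0.71, at -0.75 in frozen and -0.67 in FFPE tissue. Srebf2, the transcription factor that switches on sterol synthesis, held 38.8 and 58.5 CPM in frozen and FFPE brain against 133 and 139 CPM in heart, a log2 difference of -1.51 ± 0.21. Scd2, the stearoyl-CoA desaturase of brain, held 38.8 and 31.1 CPM against 84.2 and 110 CPM (-1.47 ± 0.19).

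Genes of axons and synapses that were called lower, outside the lists and named after their values were seen, included Map1a, a microtubule protein of dendrites, at 39.6 and 40.0 CPM in brain against 143 and 127 CPM in heart (-1.76 ± 0.21). Gnao1, a G protein subunit abundant in neurons, differed by -1.33 ± 0.20 and Cntnap1, of the junction beside the node of Ranvier, by -1.24 ± 0.19. Slc12a5, the neuronal chloride exporter, differed by -0.92 ± 0.21 and Rab3a, of synaptic vesicles, by -1.84 ± 0.39. Vessel and muscle genes called higher, chosen in the same way, included Dll4, a Notch ligand of sprouting vessels, at 31.3 and 26.6 CPM in brain against 11.6 and 9.53 CPM in heart (1.44 ± 0.32). Sox7, an endothelial transcription factor, differed by 1.23 ± 0.27 and Scn4b, a sodium channel subunit, by 1.23 ± 0.28. Both sets hold only called genes, so they do not show how axon, synapse, vessel or muscle genes differed as a whole. The lists of glutamate and GABA genes and of endothelial genes had medians of -0.08 and 0.56.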
